A study of Danio rerio with 12 samples.

Results

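The genes described here encode proteins that write, erase and read marks on chromatin or move its nucleosomes. They were taken by name: every probe set whose single gene symbol begins with one of a fixed set of family names (for example kmt, setd, prmt, kat, hdac, sirt, kdm, jmjd, smarc, chd, dnmt, mbd, sin3, ncor and rbbp) was a member. In this way 100 of the 8793 genes that the array names were taken, rbbp5 among them, with 133 of its 15502 probe sets. After the removal of probe sets with low values, 104 members of 87 genes were tested among 11624 probe sets, while 29 members, with normalized intensities from 0.909 to 62.6, were not tested, and 13 genes had no probe set left to test.

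The arrays measured RNA from pineal glands of adult zebrafish, 0.5 to 1.5 years old and of both sexes, all of the transgenic line Tg(aanat2:EGFP)Y8, in which the aanat2 promoter drives EGFP and lets the gland be dissected under a fluorescence microscope. The fish had been raised in 12 h of light and 12 h of darkness and were sampled in constant darkness every 4 h over 48 h. Each of the 12 arrays carried RNA of 1 pool of 12 glands, at 6 circadian times, from CT14 through CT18, CT22, CT2 and CT6 to CT10, in each of 2 daily cycles. Each circadian time thus has n = 2 arrays, and pool, day and hybridization cannot be told apart between them. The question of the design is which transcripts change with a period of 24 h when no light is given.

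DNA is wound around histones, and the marks that histones carry set how readily a gene is transcribed. Writers add such marks (methyltransferases, acetyltransferases, and the DNA methyltransferases), erasers take them off (deacetylases, sirtuins, demethylases), and remodellers spend ATP to slide, evict or exchange nucleosomes. In mammals the activators of the circadian clock bring acetyltransferases and H3 methyltransferase complexes to their target genes, and the repressors bring deacetylase complexes with SIN3 or NCoR, so that histone marks at clock targets change over the day although the enzymes themselves need not. The roles given here for single genes are known chiefly from their mammalian counterparts.

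The normalized intensity over the arrays was 1634 to 4313 for crx, a transcription factor of photoreceptors, and 695 to 2203 for exorh, the pineal opsin. For aanat2, the enzyme that times melatonin synthesis, it was 285 to 2658. Another pineal marker, otx5, was dimmer, at 98.8 to 273. Its lowest values were 98.8, 108 and 130, on CT2, CT6 and CT10 of the second cycle. The array of CT6 in the second cycle stood farthest apart. Its mean correlation with the other arrays was r = 0.814, against 0.865 to 0.907 for the others, and 12 of 12 skin markers, 7 of 7 bone and connective tissue markers and 9 of 9 immune markers lay above their own 12-array mean on it. The summed intensity of the skin markers was 24079 there, with a median of 4349 over the 12 arrays, that of the bone markers 21537 with a median of 2163, and that of the immune markers 21739 with a median of 6007. The pineal markers had their lowest sum on that array, 16281, with a median of 27381. Markers of other tissues were also high on other arrays: those of brain summed to 18619 on CT18 and 16987 on CT2 of the second cycle (9 and 8 of 9 markers above their mean, median sum 10235), those of bone to 11740 on CT10 and 5911 on CT14 of the first cycle (7 of 7 on each), and those of skin to 11878 on CT14 and 11182 on CT18 of the first cycle (10 and 11 of 12). The part of these tissues in the results was not tested. The counts of calls are given with and without CT6 of the second cycle, and without that array the fitted fold of 1 of the members tested both ways, rbbp8l, moved by over 1.5 times (2.37 to 4.11, unadjusted p = 0.174 in limma), while class medians and single values are given on all 12 arrays. In such pools, fewer cells of a type and less RNA per cell cannot be told apart. The 23 clock genes tested served as a check of the fit, and 10 of their 27 probe sets passed it.

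No chromatin gene passed the test for a 24-h rhythm. Each probe set was fitted with a 24-h cosine curve in limma, and 0 of the 104 members passed a false discovery rate of 0.05, against 0.516% of all probe sets tested (60 probe sets). The lowest adjusted p of a member was 0.329 (limma). At an unadjusted p under 0.05 in the same fit there were 11 members (10.6%), close to the 10.1% of all probe sets. A Fourier analysis after that of the study ranks profiles by the g-factor, the share of a profile's variation that lies at 24 h. It was run here with 100 shuffles of each profile, fewer than the study used, and gave 1 member in its list at a true-positive rate of 90%, rbbp5, or 0.962% of the members, against 0.482% of all probe sets (56 probe sets, of which 5.35 were expected from shuffled profiles). The study reports a longer list for its arrays at this rate, so its calls are not reproduced here, and the cause was not tested. The median g-factor was 0.222 over the members and 0.191 over all probe sets, and the median fitted fold, the fitted peak over the fitted trough, was 1.34 over the members and 1.40 over all. A fitted fold over 2 was found for 9 members (8.65%), against 15.2% of all probe sets. The median of the fitted peak minus trough was 0.42 on the log2 scale for the members, beside a median standard error of 0.278. The count of 11 hung on single arrays: it was 6 without CT14 of the second cycle, 7 without CT18 of the first or CT2 of the second, and 14 without CT10 of the second, and with circadian time as a factor of 6 levels it was 0, against 5.35% of all probe sets. Without the array that stood apart, CT6 of the second cycle, it was 12 (11.4%, against 12.6% of all probe sets), and 10 of the 11 were among them, all but prmt8b, whose fold was then 1.52 (unadjusted p = 0.131 from limma). Without that array, 0 of 105 members and 105 of 11624 probe sets passed the false discovery rate of 0.05 in limma. The Fourier list then held 1 of the 105 members, rbbp5, and 121 of the 11624 probe sets, so its share of members did not lie above that of all.

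**Figure D1:**
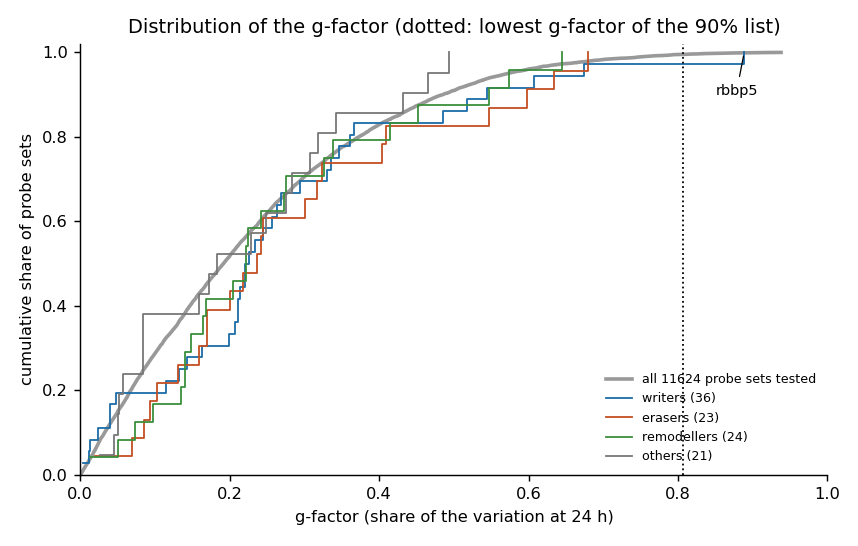
Cumulative share of probe sets (vertical axis) by g-factor (horizontal axis, share of the variation at 24 h) for the writers, erasers, remodellers and other members and for all 11624 probe sets tested. The class curves run beside the curve of all probe sets, and only rbbp5, at 0.889, lies to the right of the dotted line at 0.807, the lowest g-factor of the 90% list.

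rbbp5 encodes a core subunit, with wdr5 and ash2l, of the complexes that methylate lysine 4 of histone H3, a mark of active promoters. Its normalized intensity over CT14, CT18, CT22, CT2, CT6 and CT10 was 306, 304, 344, 391, 371 and 333 in the first cycle and 263, 280, 342, 421, 378 and 343 in the second. Both arrays of CT2 lay above the other 10, and the 4 arrays of CT14 and CT18 lay below the other 8. The brain markers summed to 6758 on CT2 of the first cycle and to 16987 on CT2 of the second. Skin markers were low on both CT2 arrays, with sums of 2266 and 1575. They summed to 11878 on CT14 and 11182 on CT18 of the first cycle, and to 6347 and 1150 on those of the second. The part of these tissues in the profile of rbbp5 was not tested. The mean of rbbp5 was 406 ± 21.7 (SD, n = 2) at CT2 and 285 ± 30.4 (SD, n = 2) at CT14. The fitted fold was 1.42, or 0.51 on the log2 scale with a standard error of 0.157, and the fitted peak lay at CT3.51 with a standard error of 1.18 h. The g-factor of 0.889 was the highest of the 104 members, while the adjusted p was 0.402 (limma), so that rbbp5 was called by the Fourier analysis and not by limma. The pattern also depended on the scaling of the arrays. When the arrays were centred on their medians and not quantile-normalized, the 12 values were 323, 334, 367, 400, 360 and 362 in the first cycle and 305, 295, 285, 377, 341 and 304 in the second, so that CT2 remained highest in both cycles while CT22 of the second cycle became the lowest array. The g-factor was then 0.413 and the fitted fold 1.21 (adjusted p = 0.754 from limma), and rbbp5 was not in the Fourier list. Without any further normalization the g-factor was 0.861 and the fold 1.38. With 1 array left out, rbbp5 was in the Fourier list in 10 of 12 cases, the exceptions being CT18 and CT10 of the first cycle.

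**Figure D2:**
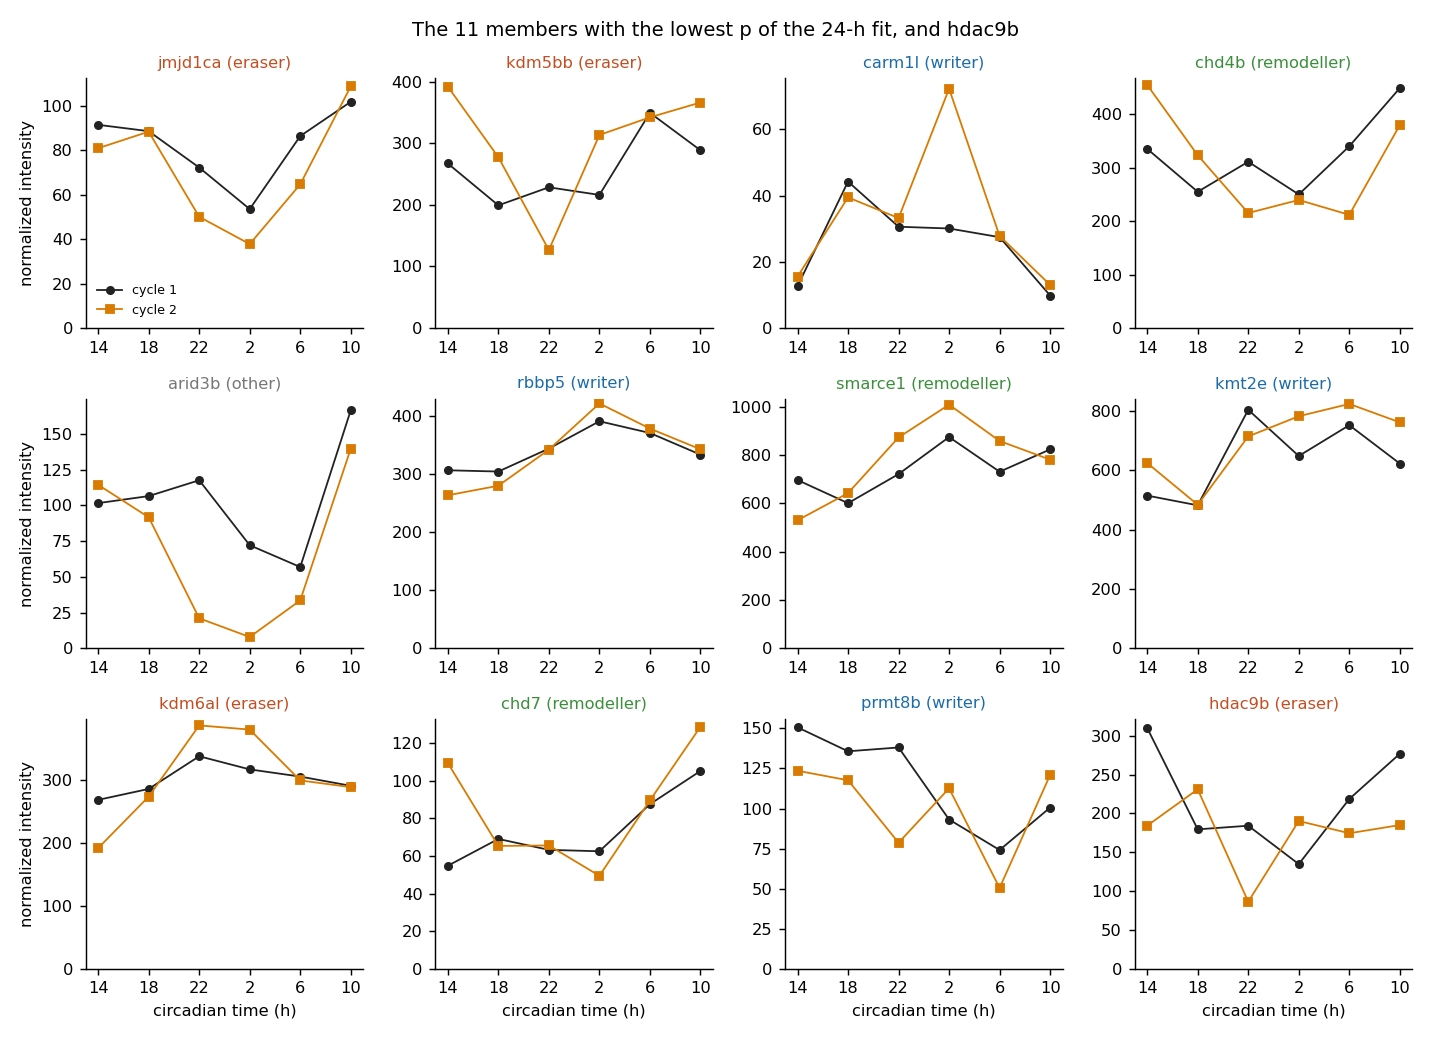
Normalized intensity (vertical axis, from 0) against circadian time (horizontal axis, h) for the 11 members with an unadjusted p under 0.05 and for hdac9b, with 1 point per array and 1 line per daily cycle. The cycles of rbbp5 run beside each other, while those of chd4b, arid3b and hdac9b part at several times. The second cycle of jmjd1ca lies below the first from CT22 to CT6, with CT10 highest and CT2 lowest in both.

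Of the writers, 36 probe sets of 32 genes were tested, 4 had an unadjusted p under 0.05 and 0 passed limma after adjustment. Besides rbbp5 these were carm1l, kmt2e and prmt8b. kmt2e, a relative of the trithorax methyltransferases, had intensities of 515, 482, 804, 649, 753 and 623 in the first cycle and of 625, 484, 715, 783, 824 and 762 in the second. Both arrays of CT18 lay below the other 10, and the fitted fold of 1.51 had its peak at CT4.21 (standard error 1.22 h, adjusted p = 0.419 from limma). carm1l, named for its likeness to the arginine methyltransferase and coactivator Carm1, had 12.6, 44.2, 30.6, 30.0, 27.4 and 9.79 in the first cycle and 15.5, 39.4, 33.2, 72.2, 27.8 and 13.0 in the second. It was low at CT10 and CT14 in both cycles, with a fitted fold of 3.72 and a fitted peak at CT23.4 (standard error 1.14 h, adjusted p = 0.394 from limma). Only CT2 of the second cycle, at 72.2, lay above 62.6, the highest intensity among the members removed as low. carm1l thus passed the filter through that array alone, which lies near its fitted peak. prmt8b, whose mammalian counterpart is an arginine methyltransferase of neurons held at the plasma membrane, had a fitted fold of 1.81, peaking at CT16.7, and both arrays of CT6, at 74.1 and 50.5, lay below the other 10 (adjusted p = 0.482 from limma). Of the remaining arginine methyltransferases, prmt3 had a fold of 1.95, peaking at CT0.438 (g-factor 0.545, adjusted p = 0.508 from limma), and prmt1, the brightest of the family, lay between 1752 and 2877 with a fold of 1.20. prmt3 was dim, at 27.5 to 81.0. It lay above 62.6 only at CT2 of both cycles and CT22 of the second, near its fitted peak, and passed the filter through these arrays.

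No partner of rbbp5 passed the test. Of the genes listed by name as MLL/COMPASS, 6 were tested with 7 probe sets (ash2l, kmt2ba, kmt2ca, kmt2e, rbbp5 and wdr5). Among them kmt2e was listed for its name only and is not counted as a partner of rbbp5. Unadjusted p under 0.05 in limma were found for 2 of the 7, rbbp5 and kmt2e, against 10.1% of all probe sets. The probe sets of ash2l, kmt2ba, kmt2ca and wdr5 had unadjusted p of 0.213 to 0.786 in limma. ash2l, which with rbbp5 stimulates the methyltransferase, lay between 514 and 853, with a fitted fold of 1.20 and a fitted peak at CT15.8 (standard error 2.76 h). wdr5, the scaffold that holds the enzyme, had fitted folds of 1.34 and 1.24 in its 2 probe sets, peaking at CT17.7 and CT11.4. For kmt2ba the fold was 1.35, peaking at CT2.18. Of the polycomb repressive complex PRC2, which methylates another lysine of H3 and silences genes, 7 probe sets of 6 genes were tested and 0 had a p under 0.05 in limma. eed, the subunit that binds the finished mark, had the highest g-factor of these, 0.517, with a fold of 1.46 and a fitted peak at CT5.77 (adjusted p = 0.543 from limma). Of the 6 acetyltransferase probe sets (crebbpa, crebbpb, kat14, kat5a, kat7b, kat8), 0 had a p under 0.05, and their fitted folds ran from 1.05 to 1.41. With 10.1% of all probe sets under 0.05, counts of 0 in 6 or 7 probe sets say little about PRC2 or the acetyltransferases.

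Of the erasers, 23 probe sets of 21 genes were tested, and 3, all of them demethylases, had an unadjusted p under 0.05 in limma. jmjd1ca, a jumonji-domain protein of the family of H3 demethylases, had the lowest p of all members. Its intensities were 91.5, 88.6, 72.2, 53.5, 86.4 and 102 in the first cycle and 80.9, 88.4, 50.04, 37.8, 64.7 and 109 in the second. It was highest at CT10 and lowest at CT2 in both cycles, and both arrays of CT10 lay above the other 10. The bone markers summed to 11740 on CT10 of the first cycle and 1649 on CT10 of the second. Skin markers summed to 2266 and 1575 on CT2 of the first and the second cycle, and to 1150 on CT18 of the second. The part of these tissues was not tested. The mean of jmjd1ca was 105 ± 4.91 at CT10 and 45.6 ± 11.1 at CT2 (SD, n = 2 arrays each). The fitted fold was 2.04, or 1.03 on the log2 scale with a standard error of 0.286, peaking at CT12.8 (standard error 1.06 h, adjusted p = 0.329 from limma). Without the last 4 arrays of the second cycle the fitted fold was 1.55. With circadian time as a factor jmjd1ca had an unadjusted p of 0.0564 in limma. It kept an unadjusted p under 0.05 with each of the 12 arrays left out in turn (0.00754 to 0.0357 in limma) and with median centring (0.0114).

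kdm5bb, which removes methyl groups from the lysine that the rbbp5 complexes methylate, had 267, 199, 228, 216, 349 and 289 in the first cycle and 392, 277, 126, 314, 342 and 366 in the second. Its lowest array was CT22 of the second cycle, and the fitted fold was 1.90, peaking at CT9.42 (standard error 1.13 h, adjusted p = 0.386 from limma). The fitted peaks of kdm5bb and rbbp5 lay at CT9.42 and CT3.51, with standard errors over 1 h each. kdm6al, a relative of the demethylase that acts on the PRC2 mark, had 269, 286, 338, 317, 306 and 291 in the first cycle and 192, 274, 387, 380, 300 and 289 in the second. It was highest at CT22 and lowest at CT14 in both cycles (fold 1.48, peak at CT1.19, adjusted p = 0.455 from limma). With median centring the fold of kdm6al was 1.32 (unadjusted p = 0.170 from limma). Of kdm4b 3 probe sets were tested, and their fitted peaks lay up to 11.4 h apart.

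Among the deacetylases 0 of 7 probe sets had an unadjusted p under 0.05 in limma, with fitted folds from 1.05 to 1.77. With 10.1% of all probe sets under 0.05, a count of 0 in 7 says little about them. hdac1, the deacetylase of the SIN3 and NuRD complexes, was bright and even, from 2843 to 4260, with a fitted fold of 1.05 (0.07 on the log2 scale, standard error 0.183). hdac3, the deacetylase of the NCoR corepressor, had 202, 225, 186, 171, 211 and 237 in the first cycle and 197, 201, 161, 161, 179 and 149 in the second. Its fold was 1.20 (0.26 on the log2 scale, standard error 0.210, adjusted p = 0.808 from limma), and CT10 was the highest array of the first cycle and the lowest of the second. A second hdac3 probe set was removed as low. ncor1 itself was dim, between 9.87 and 81.1. hdac9b, a class IIa deacetylase, had 310, 180, 184, 135, 219 and 277 in the first cycle and 184, 231, 86.3, 190, 174 and 185 in the second, with a fitted fold of 1.77 and a fitted peak at CT11.8 (standard error 1.44 h, adjusted p = 0.516 from limma). The study gives this name to another probe set, which has no symbol in the platform annotation and is therefore no member. That probe set had 562, 388, 443, 834, 799 and 671 in the first cycle and 874, 394, 470, 488, 671 and 925 in the second, a g-factor of 0.622 and a fitted fold of 1.97, peaking at CT8.20 (standard error 0.971 h), and it was lowest at CT18 in both cycles (adjusted p = 0.266 from limma). Of the sirtuins, sirt6 had a fold of 1.43 and a g-factor of 0.598, peaking at CT13.1, and both arrays of CT2 lay below the other 10 (adjusted p = 0.539 from limma).

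Of the remodellers, 24 probe sets of 16 genes were tested, and 3 had an unadjusted p under 0.05 in limma. smarce1, a DNA-binding subunit of the SWI/SNF complex, had 696, 601, 721, 874, 731 and 823 in the first cycle and 530, 642, 872, 1008, 858 and 781 in the second. As for rbbp5, both arrays of CT2 lay above the other 10, and the fitted fold was 1.49, peaking at CT3.45 (standard error 1.20 h, g-factor 0.645, adjusted p = 0.412 from limma). As with rbbp5 and kdm6al, the folds of smarce1 and kmt2e were smaller with median centring, 1.22 and 1.27, with unadjusted p of 0.361 and 0.312 from limma. The remaining SWI/SNF probe sets included both smarcb1 genes, which encode a core subunit, with folds of 1.24 and 1.41. Of the complex 9 probe sets of 7 genes were tested, and smarce1 was the 1 with an unadjusted p under 0.05, against 10.1% of all probe sets. At that share a count of 1 in 9 says little about the complex.

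The CHD genes encode remodelling ATPases with chromodomains, and chd4a and chd4b are those of the NuRD complex. The probe set of chd4a had a fitted fold of 1.17 (adjusted p = 0.854 from limma). The chd4b probe set with the lowest p had 335, 255, 311, 250, 340 and 449 in the first cycle and 455, 324, 215, 240, 212 and 380 in the second. Its fitted fold was 1.72, peaking at CT12.3 (standard error 1.15 h, adjusted p = 0.394 from limma). The other probe sets of chd4b had folds of 1.44 and 1.14, peaking at CT1.82 and CT15.9, and the largest gap between their peaks was 10.5 h. chd7, another ATPase of this family, had a fold of 1.82, peaking at CT10.2 in 1 probe set (adjusted p = 0.470 from limma) and of 1.76, peaking at CT13.1 in the other (adjusted p = 0.769 from limma). The former was highest at CT10 in both cycles, with 105 and 129, and its unadjusted p stayed under 0.05 with only 4 of the 12 arrays left out in turn. smarcad1a, an ATPase related to SWI/SNF, had a fold of 1.62, peaking at CT11.3 (adjusted p = 0.556 from limma).

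The members that are neither writers, erasers nor remodellers by name are readers, scaffolds of corepressors and DNA-binding proteins, and some that the pattern of names takes in although their known role lies elsewhere. Of these, 21 probe sets of 18 genes were tested, and 1 had an unadjusted p under 0.05. That probe set, of arid3b, which encodes a DNA-binding protein of the AT-rich interaction family, had 102, 107, 118, 72.2, 56.9 and 167 in the first cycle and 114, 91.8, 21.1, 7.95, 33.6 and 140 in the second. Both arrays of CT10 lay above the other 10, and the fitted fold of 5.25 was the largest of the 104 members tested (peak at CT13.6 with a standard error of 1.15 h, adjusted p = 0.394 from limma). Most of the fall lay in the second cycle, with 21.1, 7.95 and 33.6 at CT22, CT2 and CT6, and without the last 4 arrays of that cycle the fitted fold was 1.65. A further 2 probe sets of arid3b were removed as low. mbd3a, a NuRD protein of the methyl-CpG-binding family, had a fold of 1.54, peaking at CT9.29, and arid4a, a protein of the SIN3 complex, a fold of 1.55, peaking at CT20.6 (limma, adjusted p = 0.502 for mbd3a and 0.572 for arid4a). rbbp6, which despite its name is a ubiquitin ligase of RNA processing, had folds of 2.30 and 1.89 in its 2 probe sets, peaking at CT22.8 and CT18.2 (adjusted p = 0.629 and 0.679 from limma). Both were dim and passed the filter through 1 array at or near the fitted peak. These were CT2 of the second cycle, at 72.8, and CT18 of the second cycle, at 66.5. All other arrays lay below 62.6, the highest intensity among the members removed as low.

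**Figure D3:**
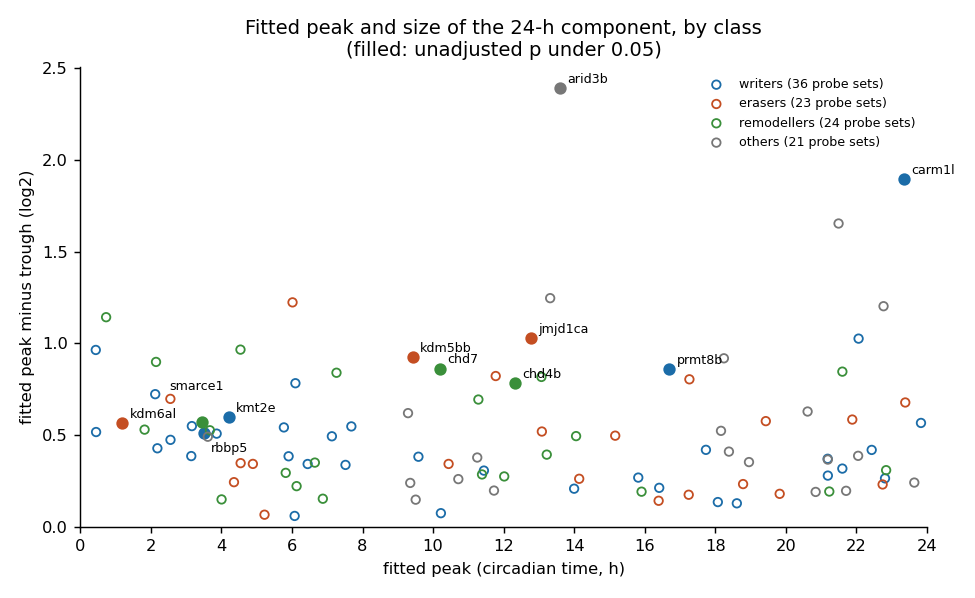
Fitted peak (horizontal axis, circadian time in h) and fitted peak minus trough (vertical axis, log2) of the 104 members tested, coloured by class, with the 11 of unadjusted p under 0.05 filled and named. The peaks of the 11 are spread over the day, and arid3b and carm1l stand above the rest. carm1l was dim, at 9.79 to 72.2, and passed the filter on low values through CT2 of the second cycle alone.

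The classes were compared by the time of their fitted peaks and by their medians. Most peaks were placed loosely, with a median standard error of 2.60 h over the members and 2.66 h over all probe sets. It was 2 h or less for 27 of the 104 members (9 writers, 6 erasers, 6 remodellers and 6 others). The counts by interval are therefore descriptions and were not tested. The fitted peaks of the writers fell in CT0 to CT6, CT6 to CT12, CT12 to CT18 and CT18 to CT24 in 12, 9, 5 and 10 probe sets, those of the erasers in 6, 4, 7 and 6, those of the remodellers in 8, 7, 6 and 3, and those of the others in 1, 6, 2 and 12, against 26%, 24.7%, 25% and 24.3% of all probe sets. Without CT6 of the second cycle the counts were 14, 9, 5 and 8 for the writers, 6, 4, 7 and 6 for the erasers, 9, 11, 2 and 2 for the remodellers and 3, 5, 3 and 10 for the others. The 11 members of unadjusted p under 0.05 had 4, 2, 4 and 1 of their peaks in these intervals. The median deviation of a writer from its own 12-array mean was highest at CT2 of the first cycle, 0.17 on the log2 scale, and was 0.12 at CT2 of the second, but the highest value of the second cycle, 0.16, was that of CT22. It was -0.14 at CT18 of the first cycle and 0.04 at CT18 of the second. The median of the remodellers was 0.19 and 0.18 at CT10 of the first and of the second cycle, its highest value in each, and -0.03 and -0.15 at CT18. The median of the erasers stayed between -0.08 and 0.10. The median over all probe sets ranged over 0.114 on the log2 scale across the arrays, and that of the writers, erasers and remodellers over 0.312, 0.187 and 0.347. That of the others, a mixed group, ranged over the most, 0.408, from -0.23 at CT6 to 0.18 at CT14, both of the second cycle. The medians of the classes rest on 21 to 36 probe sets each, with 2 arrays a circadian time, and were not tested. Unadjusted p under 0.05 were found for 11.1% of the writers, 13.0% of the erasers, 12.5% of the remodellers and 4.76% of the others, against the 10.1% of all probe sets.

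**Figure D4:**
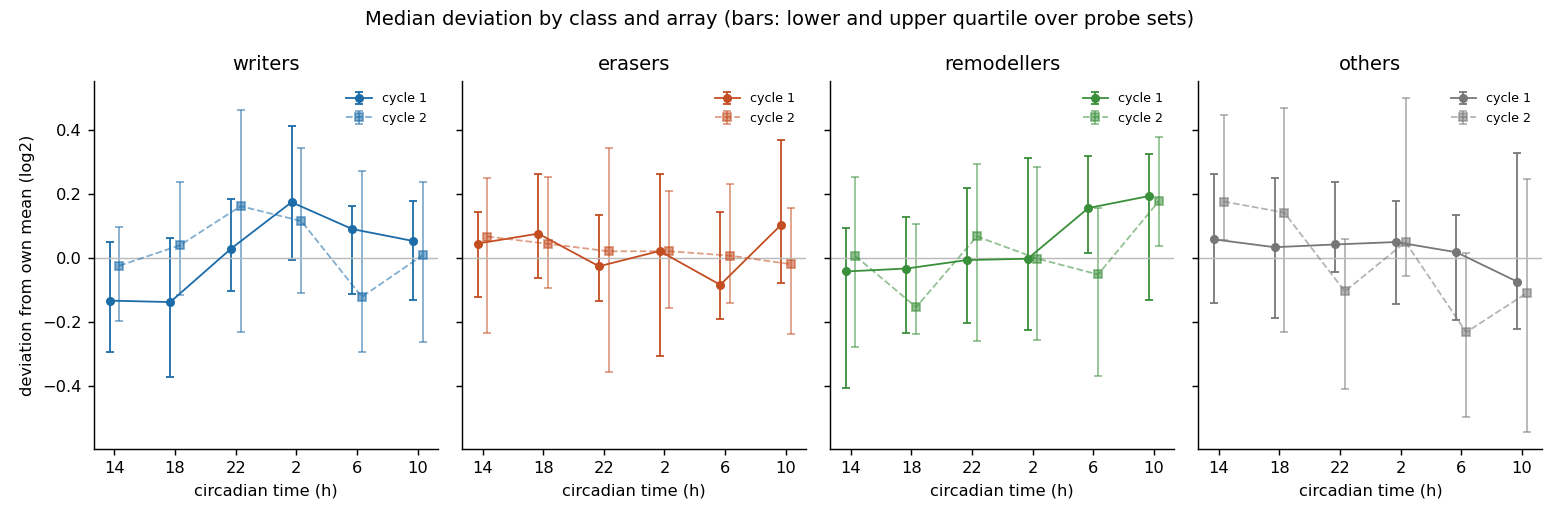
Median deviation of the probe sets of each class from their own 12-array mean (vertical axis, log2) against circadian time (horizontal axis, h), with 1 line per daily cycle and bars from the lower to the upper quartile over probe sets. The bars cross 0 at most times in every class, and the remodellers have their highest median at CT10 of both cycles.

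The share of members with the same highest time in both cycles lay near that of all probe sets. The shares for a repeated lowest time lay above those of all probe sets. These differences were not tested. The highest of the 6 circadian times was the same in both cycles for 21 members (20.2%, against 18.5% of all probe sets) and the lowest for 24 (23.1%, against 17.4%). Both were the same for 5 members (4.81%, against 3.71%): jmjd1ca, kdm6al, prmt8b, a probe set of rbbp6 and a probe set of smarca5, the ATPase of the ISWI complexes, which was named after its values had been seen. The rbbp6 probe set was highest at CT2, and CT2 of the second cycle was the only array through which it passed the filter on low values. Both arrays of a circadian time lay above the other 10 in 8 members (7.69%, against 9.7%) and below them in 14 (13.5%, against 8.79%).

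No member passed the test of a difference between the daily cycles. With the 24-h terms kept in the limma model, 0 of the 104 members and 0 of all probe sets (0%) passed a false discovery rate of 0.05, with a lowest adjusted p of 0.639 among the members. At an unadjusted p under 0.05 there were 7 members (6.73%, against 7.14% of all probe sets), 4 higher in the second cycle (3.85%, against 3.02%) and 3 lower (2.88%, against 4.12%). The count of 7 hung on single arrays: it was 2 without CT2 of the first cycle, 3 without CT22 of the first or CT10 of the second, 4 without CT10 of the first or CT2 of the second, and 10 without CT22 of the second, against 4.69% to 9.26% of all probe sets in these settings. Without CT6 of the second cycle it was 8, against 10.7%. A probe set of ezh2, the methyltransferase of PRC2, had 292, 318, 233, 241, 243 and 377 in the first cycle and 326, 390, 504, 494, 460 and 390 in the second. It was higher in the second cycle at each of the 6 circadian times, by 0.60 on the log2 scale (standard error 0.170, unadjusted p = 0.00393, adjusted p = 0.639 from limma), and its fitted 24-h fold was 1.04. The other ezh2 probe set tested was dimmer and was higher by 0.61 (standard error 0.310, unadjusted p = 0.0726 from limma). The methyltransferase setd6 was higher by 0.81 (standard error 0.335) and rbbp8, a protein of DNA repair, by 0.47 (standard error 0.199), while arid3b was lower by 1.12 (standard error 0.430) and hdac8, a class I deacetylase, by 0.36 (standard error 0.143). The other members of unadjusted p under 0.05, sin3aa (0.38 higher) and kmt5aa (0.32 lower), lie outside the rule for named genes and were picked from their values. The spiked controls of the hybridization were brighter on CT22, CT2, CT6 and CT10 of the second cycle (geometric mean 837 to 1314) than on the other 8 arrays (515 to 728), and their part in the differences between the cycles was not tested.

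**Figure D5:**
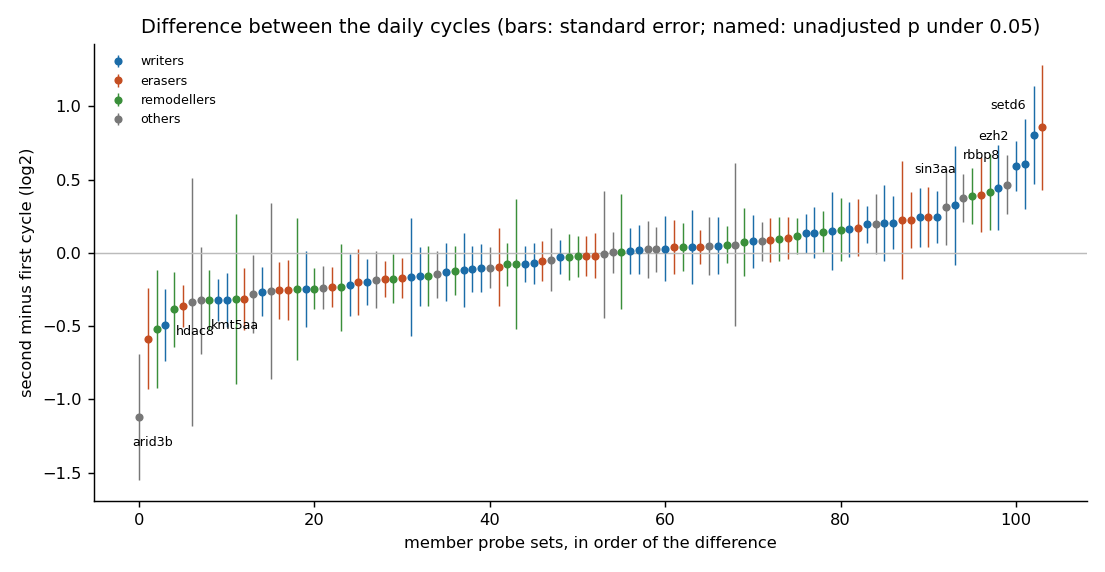
Difference between the daily cycles (vertical axis, second minus first, log2) for the 104 members tested in order of size (horizontal axis), coloured by class, with bars of 1 standard error. Members lie on both sides of 0 in each class, from -1.12 for arid3b to 0.86 for a probe set of kdm4b, and the 7 named ones have an unadjusted p under 0.05. That kdm4b probe set was dim, at 6.66 to 70.7, and passed the filter on low values through CT10 of the second cycle alone.

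No member passed the test of a second, shorter period. For a 12-h component beside the 24-h terms, 0 of the 104 members and 0 of all probe sets (0%) passed a false discovery rate of 0.05 in limma, and 3 members had an unadjusted p under 0.05 (2.88%, against 2.67% of all probe sets), namely probe sets of rbbp6, of chd1, an ATPase that follows elongating polymerase, and of kat7b, an acetyltransferase. Their unadjusted p were 0.0327, 0.0347 and 0.0487 in limma, and the adjusted p was 0.987 for each. The probe sets of rbbp6, at 11.4 to 72.8, and of chd1, at 10.3 to 64.8, were dim. Only CT2 of the second cycle for rbbp6 and CT14 of the first for chd1 lay above 62.6, the highest intensity among the members removed as low. Each thus passed the filter through its highest array alone. The count was 3 without CT6 of the second cycle, between 1 and 4 with any 1 array left out (1 without CT14 of the second cycle), and 0 with a linear trend as covariate. It was 1 with an offset of 32 before log2, 1 without further normalization, and 1 of 74 members tested with the filter at the lowest 50%. kat7b had 232, 217, 264, 303, 260 and 286 in the first cycle and 249, 190, 432, 379, 230 and 325 in the second, lowest at CT18 in both.

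Probe sets of the same gene did not always share their fitted peak. Of the 15 genes with more than 1 probe set tested, 6 had peaks over 6 h apart: chd2, chd4b, kdm4b, setd3, smarca2 and wdr5. Their probe sets correlated across the 12 arrays with r from -0.39 to 0.67, given as a description. The probe sets of setd3, whose mammalian counterpart modifies actin, had peaks 10.4 h apart with r = 0.67 and fitted folds of 1.43 and 1.15. Those of smarca2, an ATPase of SWI/SNF, had peaks 9.27 h apart and folds of 1.80 and 1.11, and those of chd2, another CHD ATPase, peaks 7.40 h apart and folds of 1.31 and 1.23. Of the 6 genes only chd4b had a probe set with an unadjusted p under 0.05 (0.0175 in limma). The lowest unadjusted p of the rest ran from 0.162 for smarca2 to 0.396 for setd3 (limma). Their peaks were placed loosely, with standard errors of 2.71 and 7.12 h for setd3 and of 1.87 and 5.05 h for smarca2. For chd4b they were 1.15, 2.29 and 10.8 h. The gaps therefore do not show that the probe sets differ in timing.

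The genes of chromatin that the pattern of names leaves out also gave 0 calls. Of 120 further genes listed (among them polycomb, heterochromatin, bromodomain, INO80 and histone chaperone genes), 59 were on the array and 54 were tested with 66 probe sets. In limma 0 passed a false discovery rate of 0.05, 4 had an unadjusted p under 0.05 (6.06%, against 10.1% of all probe sets), and the median g-factor was 0.186, against 0.191 over all probe sets. By contrast, 17 of the 27 probe sets of clock genes (63%) had an unadjusted p under 0.05 in the same fit, with a median fitted fold of 3.03.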

How the data were processed

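The deposited table holds linear signal intensity of the 12 Affymetrix arrays, each scaled by the authors on its own with the GCOS software; the submitters' processing notes also name MAS5, and no version is given in the sources used here. The table holds no detection calls, so the background of a probe set is not known. The 115 control probe sets were left out. After a log2 transformation, quantile normalization was done as in the study's Methods (limma 3.58.1, R 4.3.3). Probe sets with a maximum in the lowest 25% of all maxima were dropped, as was 1 that was constant after normalization, which left 11624. The 24-h fit in limma had a cosine and a sine term over all 12 arrays, eBayes with a variance trend and 9 residual degrees of freedom, and p-values of its F test were adjusted over all probe sets (Benjamini-Hochberg). g-factors were obtained in Python 3.11.15 (numpy 2.4.6), with 100 shuffles per probe set, fewer than the study used. The difference between the cycles and a 12-h pair were tested in limma beside the 24-h terms. The scripts were tested on simulated profiles.

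Gene symbols are those of the platform annotation, which gives 1 symbol to 10795 probe sets; all 100 member genes matched a RefSeq gene by Entrez ID, with 0 changed symbols. Classes were set by symbol. Named genes are rbbp5, hdac9b, hdac3, the 12 members of highest g-factor, for each class the 4 of lowest p, the 5 of lowest p between the cycles, the 3 of lowest p for 12 h, and genes whose probe sets peak over 6 h apart. The members and lists were chosen with earlier results of these data known. Alternatives were other normalizations, filters, an offset of 32 before log2, 1 array or the last 4 left out, other models, false discovery rates and true-positive rates, and 1 probe set per gene. Nothing in the labels says that the arrays of a circadian time differ in more than the pool and the cycle. The p-values measure the spread of the arrays around the fitted terms. For the 24-h fit this holds the difference between the arrays of a circadian time and any departure from a cosine. With circadian time as a factor it holds the former alone. The number of arrays limits the precision. Circadian times are those of the deposited labels.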

Additional observations from a re-analysis of the deposited data

How the results depend on the processing

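The counts of members past a false discovery rate of 0.05 in limma, for the 24-h fit, the cycles and the 12-h pair, were 0 under every alternative run. For the 24-h fit, the members of unadjusted p under 0.05 numbered 9 with median centring, 8 with the last 4 arrays left out (7.55%, against 15.4% of all probe sets, of which 149 passed the false discovery rate), and 6 to 14 with 1 array left out. In the Fourier analysis with the last 4 arrays left out, the list held 11 probe sets with a lowest g-factor of 0.974. rbbp5 then had 0.872 and was not in it. The count of members in the Fourier list was 0 with median centring and 0 to 1 with 1 array left out, 0 being the count without CT18 replicate 1 and without CT10 replicate 1. With 1 array left out, the list over all probe sets held between 7 and 121, the latter without CT6 replicate 2. Over the same 12 settings rbbp5 had a g-factor of 0.875 to 0.915, a fitted fold of 1.37 to 1.46, a peak at CT3.32 to CT3.67 and an adjusted p of 0.299 to 0.685 (limma); its fall to a g-factor of 0.413 with median centring is given above, and the cause was not tested. Of the 11 members with an unadjusted p under 0.05, between 5 and 10 kept it with 1 array left out, 7 with median centring, 1 (prmt8b) with the last 4 arrays left out, where 10 were still tested, and 0 with circadian time as a factor. With the daily cycle as a replicate block, 0 members passed and 12 had an unadjusted p under 0.05 (11.5%), and no call changed. The replicate numbers are those of the daily cycles. Over the 15 pairs of circadian times, r between their cycle differences ran from -0.300 to 0.225 and was over 0.1 in 5. What the arrays of a cycle share beyond the cycle was not tested.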
